A study of Mus musculus with 10 samples.

Results

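Gata1 and the genes of its transcription cofactors were followed in cultured mouse cortical neurons that had received a Gata1-carrying virus. The 10 genes were chosen by name and not by a rule on values, but with earlier results of these data known. They are the GATA factors Gata1, Gata2 and Gata3, the FOG cofactors Zfpm1 and Zfpm2, and, of the TAL1 complex, Tal1, Lmo1, Lmo2, Lmo4 and Ldb1. Each was looked up by its symbol in the mRNA tables, which hold 40904 symbols. A row was found for 9 of the 10, with 1 row each; the mRNA level of Zfpm1 was not analysed here. The cells were cortical neurons of E14 embryos of ICR mice at day 11 in vitro (DIV11). Both groups carried an adeno-associated virus, AAV-Control in one and AAV-Gata1 in the other. The promoter that drives Gata1 in the virus, the share of cells infected and the number of embryos behind each culture are not given in the sources used here. The series lists 10 samples, of which the 2 mRNA libraries, 1 for each virus, are used here. Since each group is 1 library, the differences below have no replicates behind them and no test was made.

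GATA factors are zinc finger proteins that bind the letters GATA in DNA. GATA1 drives the red cell, platelet, mast cell and eosinophil lineages. In the red cell and platelet lineages it acts through FOG proteins, which recruit the NuRD and CtBP corepressors. It also acts there through a complex in which the LIM-only protein LMO2 and the adaptor LDB1 tie it to TAL1 and an E protein. TAL1 is a basic helix-loop-helix factor. In the nervous system GATA2, GATA3 and TAL1 are known from GABA neurons of the midbrain and hindbrain, while LMO4, LMO1, LMO3 and LDB1 are expressed in the developing cortex, where LIM-homeodomain factors also bind LDB1.

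The promoters of these genes were searched for the letters that GATA1 reads. The table of RefSeq promoters used here (build GRCm38.p6) holds 15 transcript starts for 8 of the 10 genes, all but Zfpm2 and Lmo2, and the 250 bases before each were taken. The sequences were searched on both strands for 4 forms of the GATA motif, namely AGATAA, the form TGATAA, the form AGATAG and the form TGATAG, for the E-box CANNTG and for the paired motif of the TAL1 complex, which is CTG and GATA with 9 bases of any kind between them. A GATA motif was found before 2 of the 15 starts (13.3%), against 26.5% of all 32851 promoters of that length, and the paired motif before none of the 15, against 2.16% of all. An E-box lay before 6 of the 15, against 66.2% of all promoters, and none overlapped a GATA motif. Several starts of 1 gene overlap, so they are not independent. The windows that hold a GATA motif are shown first, those of Tal1 (first start, plus strand, chr4:115056176-115056425) and Ldb1 (the third start, minus strand, chr19:46037071-46037320). They are followed by those of Gata1 (minus strand, chrX:7967911-7968160), since it had the widest difference, and Lmo1 (first start, minus strand, chr7:109175208-109175457), the furthest lower, both of which hold none. Each runs 5′ to 3′ on the gene's strand, and capitals mark the motif, here always as TTATCT, the reverse complement of AGATAA.
Tal1: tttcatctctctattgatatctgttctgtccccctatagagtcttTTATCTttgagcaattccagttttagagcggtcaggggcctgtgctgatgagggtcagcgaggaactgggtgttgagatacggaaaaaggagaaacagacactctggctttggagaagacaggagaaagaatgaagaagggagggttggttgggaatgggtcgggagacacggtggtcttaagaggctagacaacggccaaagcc
Ldb1: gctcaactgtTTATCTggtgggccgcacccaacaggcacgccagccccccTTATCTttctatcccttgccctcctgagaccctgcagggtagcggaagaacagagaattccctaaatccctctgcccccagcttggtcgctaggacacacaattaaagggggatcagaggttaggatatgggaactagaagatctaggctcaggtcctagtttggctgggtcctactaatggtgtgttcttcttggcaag
Gata1: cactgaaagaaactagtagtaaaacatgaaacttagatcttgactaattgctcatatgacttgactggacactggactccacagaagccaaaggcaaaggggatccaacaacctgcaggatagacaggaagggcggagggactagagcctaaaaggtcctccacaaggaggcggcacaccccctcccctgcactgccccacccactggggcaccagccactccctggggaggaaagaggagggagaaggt
Lmo1: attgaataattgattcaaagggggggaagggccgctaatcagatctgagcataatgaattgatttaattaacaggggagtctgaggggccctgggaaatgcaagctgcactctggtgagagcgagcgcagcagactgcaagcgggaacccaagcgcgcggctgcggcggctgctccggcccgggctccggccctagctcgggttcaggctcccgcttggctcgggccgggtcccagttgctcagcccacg
The Tal1 motif began 205 bases before the start, and the Ldb1 motifs 240 and 200 bases before it. A match of letters is a description and not a binding site, and a window without a match says nothing of sites outside it.

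Gata1 was listed at 0 FPKM in the AAV-Control library and at 2.07 FPKM in the AAV-Gata1 library, where FPKM is the number of fragments scaled to transcript length and to all mapped fragments. This is the direction that the labels give. The level was modest: 12439 genes had a higher FPKM in the AAV-Gata1 library. Whether the fragments came from the virus or from the gene of the cells cannot be told apart in these tables. Its level was 2.09 times that of Gata2, while the FPKM of Ldb1 was 30.5 times that of Gata1. In RefSeq the predicted noncoding genes Gm39488 and Gm52419 overlap Gata1. Of its nearest protein-coding neighbours, Hdac6, which encodes a cytoplasmic deacetylase, stood at 15.2 FPKM in AAV-Control and 14.7 FPKM in AAV-Gata1, and Glod5 at 0.268 and 0.141 FPKM, so neither shared the pattern of Gata1.

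To place the pattern of Gata1, every symbol of the tables was searched for it. In all, 26 symbols were listed at 0 in AAV-Control and at 1 FPKM or more in AAV-Gata1. Of these 18 were predicted genes or clones and 7 small RNA genes, and Gata1 was the 1 named gene among them. The reverse pattern was found for 33 symbols, 2 of them named genes, Dlx6os1, in 1 of its 2 rows, and the defensin gene Defb10. The plot of genes listed at 0 in 1 library shows both sets.

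**Figure D1:**
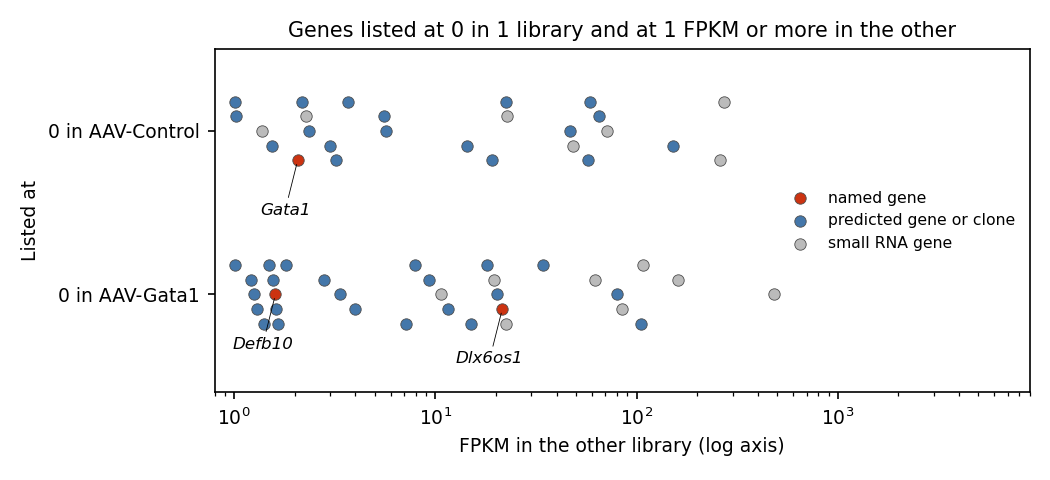
Each point is a gene symbol listed at 0 FPKM in 1 mRNA library, placed by its FPKM in the other (log axis) and coloured by the kind of symbol. Gata1, at 2.07 FPKM, is the named gene among the 26 in the upper row; the lower row holds 33 symbols, with Dlx6os1 and Defb10 as its named genes.

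The other GATA factors were low in both libraries. Gata2, which acts in blood stem cells and is lowered by GATA1 as red cells mature, stood at 0.923 FPKM in AAV-Control and 0.988 FPKM in AAV-Gata1. Gata3, a factor of T cells and of sympathetic neurons, stood close to 0, at 0.0468 and 0.0174 FPKM. Gata2 thus made up 95.2% of the summed FPKM of the 3 factors in AAV-Control, and Gata1 67.3% of it in AAV-Gata1. Gata4, Gata5 and Gata6, the factors of heart and gut, were all under a mean of 1 FPKM. Of the wider GATA-finger proteins, the repressor gene Trps1 stood at 15.6 and 16.5 FPKM and Gatad1 at 32.2 and 31.3 FPKM.

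Zfpm2 encodes FOG2, the FOG protein of heart and brain. It stood at 4.49 FPKM in AAV-Control and 4.75 FPKM in AAV-Gata1, 5.82% higher in the latter, and its level there was 2.30 times that of Gata1. The CtBP corepressor genes were far more abundant, Ctbp1 at 77.7 and 79.8 FPKM and Ctbp2 at 39.2 and 37.3 FPKM.

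Tal1, the blood and endothelial helix-loop-helix factor, stood at 0.895 FPKM in AAV-Control and 0.854 FPKM in AAV-Gata1. It was lower by 4.54% in AAV-Gata1, and the level of Ldb1 stood at 73.6 and 74.0 times that of Tal1. The protein-coding neighbours of Tal1 differed from each other: Stil stood at 2.02 and 1.82 FPKM and Pdzk1ip1 at 0.232 and 0.912 FPKM. The latter was picked out after its values were seen, and it was under 1 FPKM in both libraries. Of the factors of the same class, Nhlh2, a neuronal factor, was the most abundant, at 3.72 and 4.06 FPKM, while Lyl1, the close relative of Tal1 in blood cells, stood at 0.572 and 0.897 FPKM and Nhlh1 at 0.240 and 0.346 FPKM.

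Lmo4, a LIM-only cofactor of cortical patterning and neuronal gene control, was the highest of the genes followed, at 125 FPKM in AAV-Control and 122 FPKM in AAV-Gata1. It made up 70.8% and 71.9% of the summed FPKM of Lmo1 to Lmo4. Lmo3, which is not among the 10, came second in that family at 31.9 and 31.0 FPKM. Lmo2, the bridge of the blood complex, was the lowest, at 3.84 and 3.89 FPKM, or 2.17% and 2.29% of the family sum.

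Lmo1, a LIM-only gene of the nervous system that is also known as an oncogene in T cell leukaemia and neuroblastoma, stood at 15.8 FPKM in AAV-Control and 13.0 FPKM in AAV-Gata1. It was lower by 18.0% in AAV-Gata1, the widest difference after Gata1 among the genes that reached a mean of 1 FPKM. On the scale used for all genes, log2 of (AAV-Gata1 + 1) over (AAV-Control + 1), its difference was −0.27, and 7.02% of the 13740 genes compared lay at least as far from 0. Its protein-coding neighbours Ric3 and Stk33 stood at 14.8 and 15.1 FPKM and at 0.124 and 0.0620 FPKM.

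Ldb1, the adaptor that joins LIM proteins into pairs and loops enhancers to promoters, stood at 65.8 FPKM in AAV-Control and 63.2 FPKM in AAV-Gata1. Lmo4 stood at 1.90 and 1.93 times the level of Ldb1, and Ldb1 at 17.1 and 16.3 times that of Lmo2. The related adaptor gene Ldb2 stood at 21.5 and 20.1 FPKM. Leaving out Gata1, the order of levels was the same in both libraries for the 8 other genes: Lmo4, Ldb1, Lmo1, Zfpm2, Lmo2, Gata2, Tal1 and Gata3. Gata2 and Tal1 are so close that, with 1 library each, their order cannot be told from the spread between cultures, and the same holds for Zfpm2 and Lmo2. The plot of levels shows the order and the pairs of values.

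**Figure D2:**
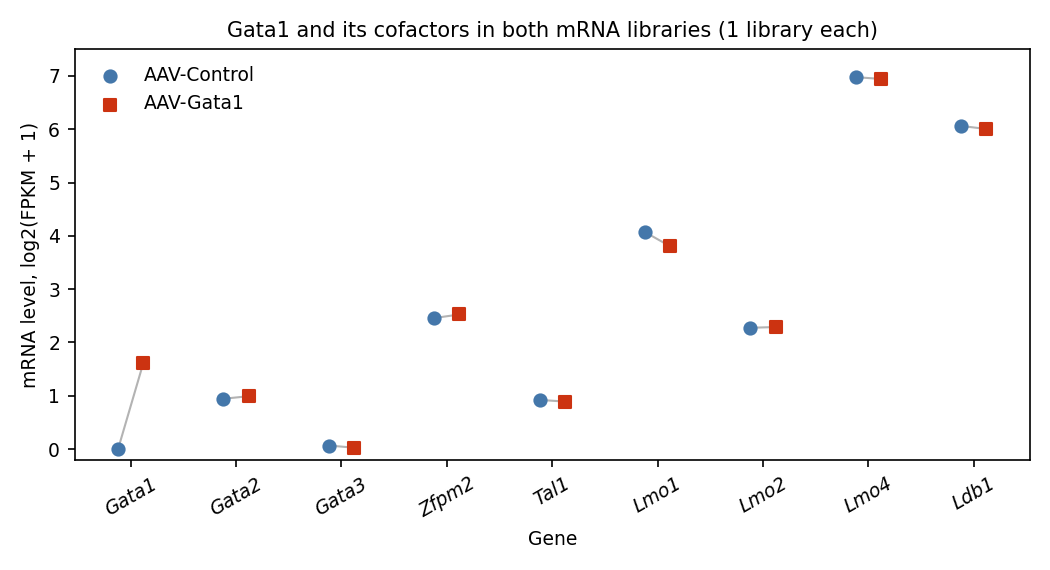
The level of each gene, as log2(FPKM + 1), in the AAV-Control library (circles) and the AAV-Gata1 library (squares), 1 library each and so without error bars. Gata1 goes from 0 to 2.07 FPKM, Lmo1 from 15.8 to 13.0 FPKM, and the pairs of the other genes lie nearly level.

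Genes whose mean reached 1 FPKM were compared on the log2 scale given above, which understates the differences of genes with low values. Of the 10 genes, 6 reached that mean: Gata1, Zfpm2, Lmo1, Lmo2, Lmo4 and Ldb1. Gata2, Tal1 and Gata3 did not, and the level of Zfpm1 was not analysed. Gata1 reached it through the AAV-Gata1 library alone and so had to differ. At 1.62 on the log2 scale it was the 1 gene of the 6 past 2-fold, a limit that 0.517% of the 13740 genes compared passed in either direction and 0.233% passed upwards. None of the 6 was 2-fold lower (0.284% of all genes). At a limit of 1.2-fold, added after the values were seen, Lmo1 was the 1 gene of the 6 that was lower (3.98% of all genes), and again Gata1 was the 1 that was higher (3.29% of all genes). The log2 differences of the other 4 were 0.07 for Zfpm2, 0.01 for Lmo2, −0.03 for Lmo4 and −0.06 for Ldb1. The 5th and 95th percentiles of all genes compared were −0.24 and 0.21, with a median of −0.01, so these 4 lay well within the range of genes in general and Lmo1 just beyond its lower end. The plot of difference against level places the 6 among all genes.

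**Figure D3:**
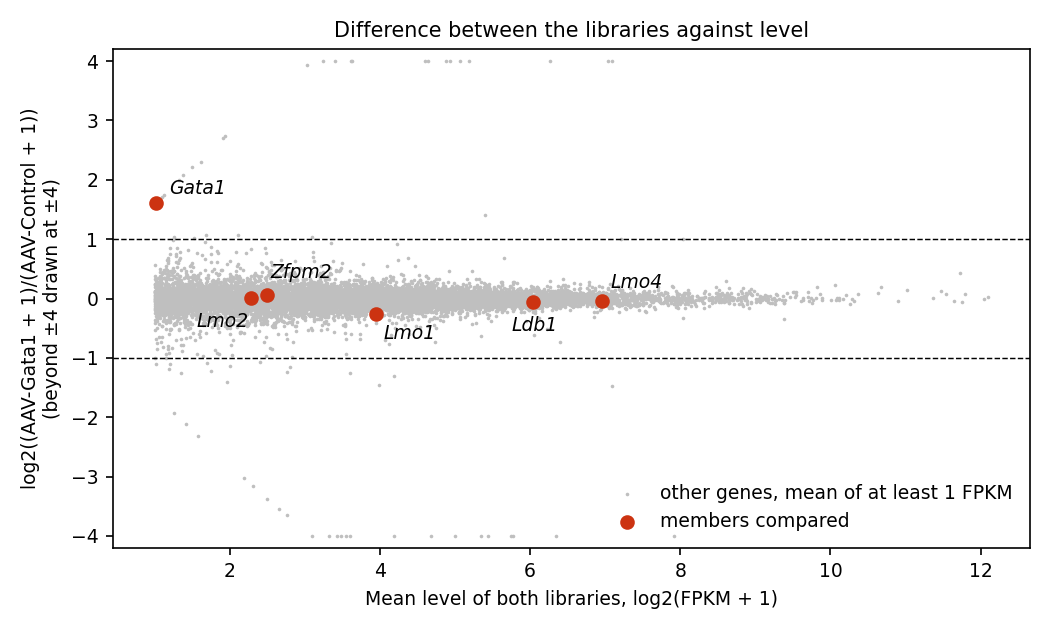
Each grey point is a gene whose mean reached 1 FPKM, placed by its mean level and its log2 difference; dashed lines mark 2-fold and values beyond 4 are drawn at 4. Gata1 lies above the upper line at 1.62, Lmo1 at −0.27, and Zfpm2, Lmo2, Lmo4 and Ldb1 close to 0.

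By the rule for genes of like pattern, the 2 named genes nearest in both log2(FPKM + 1) values were taken for each gene compared other than Gata1. These were Zswim7 (15.6 FPKM in AAV-Control and 12.9 FPKM in AAV-Gata1) and Mfsd10 (15.4 and 12.9 FPKM) for Lmo1, and Emd (65.8 and 63.1 FPKM) and Sec13 (66.0 and 63.2 FPKM) for Ldb1. They were Psip1 and Ddx17 for Lmo4, Bicc1 and Trib1 for Zfpm2, and Kcnmb4 and Fam131c for Lmo2. Their distances from the gene they resemble were at most 0.0350. Small distances follow from the choice, since the nearest of all named genes compared were taken, and the likeness rests on 2 libraries.

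Of the 70 other genes listed for the GATA1 and TAL1 complexes, 69 had a row and 50 reached a mean of 1 FPKM. None of the 50 was 2-fold apart (0.517% of all genes), and 32 of them (64.0%) were lower in AAV-Gata1, where 54.7% of all genes compared were lower. After centring on the median of all genes 26 of the 50 (52.0%) were lower, so the share followed that of genes in general. The median of the 50 was −0.02. At 1.2-fold 2 of the 50 were higher, Spi1 and Lhx1, and none lower, against 3.29% of all genes higher and 3.98% lower, so the number higher was close to that of genes in general.

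Among the partners of the FOG proteins, the NuRD complex, which remodels and deacetylates chromatin, was lower in 11 of 13 genes (54.7% of all genes compared were lower), or in 10 of 13 after centring, at a median of −0.08 and from −0.16 to 0.12. The remodeller gene Chd3 stood at 60.6 FPKM in AAV-Control and 54.0 FPKM in AAV-Gata1 and Gatad2b at 15.3 and 13.7 FPKM, while the deacetylase gene Hdac2 stood at 73.7 and 72.4 FPKM and the histone-binding gene Rbbp7 at 96.9 and 92.1 FPKM. The ETO and LSD1-CoREST corepressors were lower in 4 of 4 genes compared, before and after centring, where 54.7% and 50% of all genes were lower, with Cbfa2t2 at 11.6 and 10.1 FPKM, the demethylase gene Kdm1a at 69.7 and 68.3 FPKM and Rcor1 at 8.79 and 8.31 FPKM. The list of acetyltransferase, BET and Mediator coactivators was lower in 6 of 6, where 54.7% of all genes compared were lower. The median of the 6 was −0.03, and they ran from −0.09 to −0.01. Brd2 stood at 90.6 and 90.2 FPKM. After the ratios were centred on the median of all genes, 3 of these 6 (50%) were lower, the same share as of all genes (50%).

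The genes listed for TAL1 and LDB1, which include inhibitors as well as partners, differed widely in level. They ran from abundant Id protein genes to 2 LIM-homeodomain genes listed at 0 in both libraries. Of the 7 genes of E proteins and of the Id proteins that block them, 5 were higher (45.3% of all genes compared were higher). Their median was 0.01. After centring 6 of the 7 were higher and 1 lower, where 50% of all genes were lower. Of the E protein genes, Tcf4 stood at 135 FPKM in AAV-Control and 129 FPKM in AAV-Gata1. Tcf3 stood at 35.0 FPKM in both and Tcf12 at 37.1 and 38.1 FPKM. Of the Id genes, Id2 stood at 182 and 199 FPKM, Id3 at 194 FPKM in both and Id4 at 204 and 216 FPKM. The list of LIM-only, LDB and SSBP genes holds Lmo1, Lmo2, Lmo4 and Ldb1 themselves. In it 7 of 11 (63.6%) were lower, at a median of −0.03, where 54.7% of all genes compared were lower. After centring 6 of 11 (54.5%) were lower, where 50% of all genes were, so the share was close to that of genes in general. The SSBP proteins other than SSBP1 protect LDB1 from degradation. Ssbp3 stood at 69.9 and 59.6 FPKM, 14.8% lower in AAV-Gata1, the lowest ratio of this list after Lmo1. Ssbp2 stood at 73.0 and 72.5 FPKM and Ssbp4 at 39.2 and 39.3 FPKM. Ssbp1, which the list also holds, stood at 34.5 and 35.5 FPKM. Of the LIM-homeodomain factors 4 of 12 reached a mean of 1 FPKM. Of these 2 were higher and 2 lower, where 54.7% of all genes compared were lower. Lhx2, the selector of cortical identity, stood at 75.9 and 82.5 FPKM, Lhx1 at 1.68 and 2.22 FPKM and Lmx1a at 4.34 and 4.11 FPKM.

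**Figure D4:**
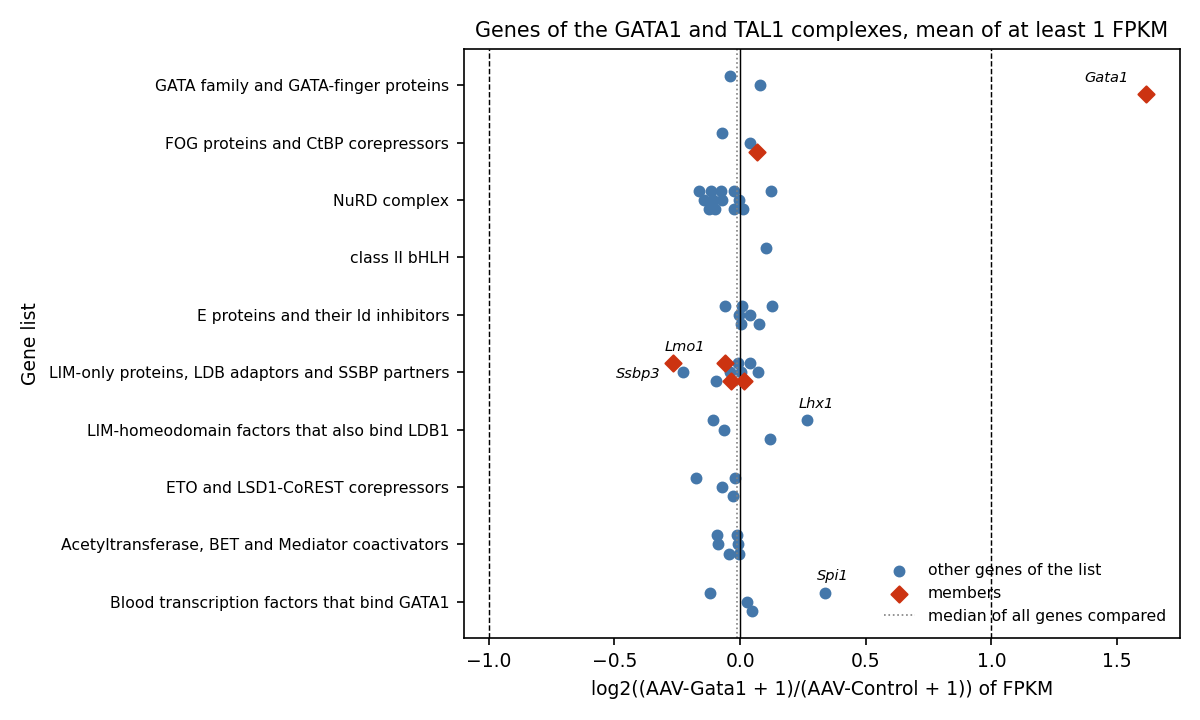
Log2 difference of each gene reaching a mean of 1 FPKM in the lists for the GATA1 and TAL1 complexes, with those of the 10 genes followed as diamonds and the others as circles; dashed lines mark 2-fold and the dotted line the median of all genes. Apart from Gata1 at 1.62, the points lie between −0.27 (Lmo1) and 0.34 (Spi1), and 11 of the 13 NuRD points lie left of 0.

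Of the 7 factors listed as partners of GATA1 in blood, 4 could be compared, among them Cbfb and Sp1, which many cells express. Klf1, Fli1 and Runx1 were under a mean of 1 FPKM. Spi1 encodes the myeloid factor PU.1, which opposes GATA1 in blood progenitors, and stood at 3.44 FPKM in AAV-Control and 4.61 FPKM in AAV-Gata1, 34.2% higher. Cbfb stood at 31.4 and 32.5 FPKM, Sp1 at 14.7 and 15.0 FPKM and Myb at 1.56 and 1.36 FPKM, while Klf1, the red cell factor, stood at 0.228 and 0.102 FPKM. Spi1 and Lyl1 are also expressed by microglia. All 8 microglia and macrophage markers compared (of 10 listed) were higher in AAV-Gata1, where 45.3% of all genes compared were higher. The summed level of the 10 was 424 FPKM in AAV-Control and 497 FPKM in AAV-Gata1. Those not compared were under 1 FPKM, P2ry12 at 0.178 and 0.117 FPKM and Tmem119 at 0.0738 and 0.154 FPKM. The part of these cells in the values of Spi1 and Lyl1 was not tested. In bulk RNA, more cells of a type and more RNA per cell cannot be told apart.

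The markers of the cells that could carry the genes followed were read in the same tables. Neuronal markers were abundant, such as Map2 at 240 and 236 FPKM and Stmn2 at 252 and 242 FPKM. Of the 10 listed, 9 had a row, and all 9 were lower in AAV-Gata1, where 54.7% of all genes compared were lower. After centring 8 of 9 were lower, where 50% of all genes were (summed level 818 and 784 FPKM). Lmo1 and most NuRD genes were also lower, and the part of the neurons in those values was not tested. The cultures also held astrocytes, with Gfap at 887 and 897 FPKM. Of the 6 astrocyte markers 3 were higher and 3 lower, where 54.7% of all genes compared were lower (summed level 1692 and 1702 FPKM). In the oligodendrocyte lineage 5 of the 7 markers compared (71.4%) were lower, before and after centring (summed level 230 and 218 FPKM). Of all genes compared 54.7% were lower before centring and 50% after it. The genes that with Gata2, Gata3 and Tal1 mark GABA neurons of the midbrain and hindbrain were all under a mean of 1 FPKM, Sox14 being at 0 in both libraries. Endothelial cells, which express Tal1, Lmo2 and Gata2, are defined by Cdh5, which stood at 0.0086 and 0 FPKM, while Kdr stood at 2.44 and 2.20 FPKM and Egfl7 at 4.46 and 5.08 FPKM (summed level of 8 markers 7.37 and 7.93 FPKM). Pericyte and smooth muscle markers had a summed level of 90.9 and 75.3 FPKM, most of it from Acta2 (76.4 and 60.7 FPKM).

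Markers of the lineages that GATA1 drives in blood were mostly under 1 FPKM. Of 12 red cell markers 3 reached a mean of 1 FPKM, with Hba-a1 at 2.16 and 2.15 FPKM, Hbb-y at 4.07 and 4.36 FPKM and Tfrc, which many cells express, at 30.2 and 30.9 FPKM; the anion exchanger gene Slc4a1 was listed at 0 in both libraries. Of 9 mast cell and eosinophil markers 7 were listed at 0 in both, among them Cpa3, and Kit, which neurons also express, stood at 6.80 and 6.51 FPKM. Of 9 megakaryocyte and platelet markers 3 were compared. The integrin gene Itga2b, a known target of GATA1 in megakaryocytes, stood at 1.39 and 3.34 FPKM and Pf4 at 3.84 and 5.70 FPKM, while Gp1bb stood at 5.52 and 4.99 FPKM and Gp9 was listed at 0 in both. On the log2 scale Itga2b differed by 0.86 and so stayed within 2-fold, although its FPKM was 141% higher. Pf4 is also expressed by macrophages, whose markers compared were higher as given above, and their part in it was not tested.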

How the data were processed

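Per the file headers, the authors deposited mRNA values as FPKM, 1 table per library with 40993 rows. The column headers do not repeat the sample titles, so each table was assigned to its virus group by the sample it is filed under. The submitters' processing notes name TopHat2 2.1.1, Cufflinks 2.1.1 and Cuffdiff 2.1.1, Bowtie 1.1.2, BWA, edgeR 3.10.2, HOMER and HTSeq 0.6.1p1, and both mm9 and mm10 as builds; the role of each is not stated there. Libraries were stranded and paired-end, per the labels' protocols; the sources used here do not say whether counting used strand, so overlapping genes are uncertain. RefSeq shows such an overlap for 8 of the 10 genes, all but Lmo4 and Ldb1. The libraries summed to 476398 FPKM (AAV-Control) and 476848 FPKM (AAV-Gata1). No steps of whole fragments were found (of 1283 rows above 0 and under 0.1 FPKM, at most 43 shared a log2 ratio within 0.02), so the depth is unknown.

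Rows without a symbol (6, 0.0122% and 0.0113% of the FPKM) were left out, and of several rows per symbol that of highest mean was used. Ratios used a pseudocount of 1 FPKM and a minimum mean of 1 FPKM. Symbols of predicted genes, clones, small RNAs and symbols read as dates were told from named genes by their form. The rule for names took the 10 genes, from each list of complex partners up to 3 by level and 2 by difference, up to 3 markers per cell type by level, the neighbours of Gata1 and genes of like pattern. Names outside it, such as Cdh5, Klf1, Lmo3, the E protein genes, the listed genes at 0 and the neighbours of Tal1 and Lmo1, were chosen after their values were seen. The genes and lists were chosen with earlier results of these data known. The mRNA levels of Zfpm1, Cbfa2t3, Tubb3 and Ahsp, the small RNA libraries and the 6 chromatin samples were not analysed here. Counting was tested on simulated data. Python 3.11.15 and pandas 2.3.3 were used.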

Additional observations from a re-analysis of the deposited data

How the results depend on the processing

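The ratios, counts and list medians were recomputed with other pseudocounts, other minimum levels, summed rows, median centring and rescaling to TPM. Of 133 recomputed values, 117 moved by no more than 0.1 (log2) or 1.5 times (counts), 16 moved further and none changed sign. The 133 also hold counts at a limit of 1.2-fold, and 3 of the 16 are among these. Centring takes off the median of all genes, −0.01, so no ratio could move past 0.1 by it. A limit of 1.2-fold, chosen after seeing the data, gave 1 higher and 1 lower of the genes followed, and 452 higher and 547 lower of all genes. The log2 ratio of Gata1, whose control value is 0, follows the scale: it was 4.44 with a pseudocount of 0.1 FPKM, 2.36 with 0.5 FPKM and 2.42 after rescaling to TPM. That of Gata3 was −0.32 with 0.1 FPKM. With a minimum mean of 5 FPKM Gata1 drops out and 0 of the genes followed were past 2-fold, while 18 of all genes were higher and 23 lower. All genes past 2-fold numbered 60 higher and 70 lower with a pseudocount of 0.1 FPKM, and 59 and 88 after rescaling to TPM, against 32 and 39. Centring left 1 of the E and Id protein genes and 3 of the coactivator genes lower, where 2 and 6 had been; the list medians kept their sign. Summing rows changed no gene followed, since each has 1 row. No replicate could be left out with 1 library per group. No paired analysis was possible because each group has 1 library. The limits are the missing replicates and the unknown depth: the precision of values near 0, such as those of Gata3, is not known.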
